A study of Solanum lycopersicum with 3 samples.

Results

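Membrane transporters were followed in ripe tomato fruit through 257 of the 11863 probes on a long-oligo array. They were chosen by words of the array's own annotation: every probe described as a transporter, permease, symporter, antiporter or translocator (265 probes), less 8 that were left out. Those 8 were 2 phosphate transporter probes (SGN-U219805 and SGN-U219528) and descriptions that named ADP/ATP, aquaporin, auxin or import into the chloroplast or mitochondrion. The words take no account of measured values, but the 2 phosphate transporter probes were left out by name, with earlier results of these data known. By the substrate in the description, 47 probes were sugar transporters, 47 carried nitrogen compounds (amino acids, nitrate, ammonium or peptides), 55 carried ions and 33 were ABC transporters. A further 29 named another substrate such as citrate or purines, 23 moved proteins or electrons, and 23 named no substrate.

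Fruit of a transgenic line, Lycb-1, was compared with fruit of its wild type parent, the cultivar Zhongshu No. 5. Lycb-1 carries a lycopene β-cyclase gene of citrus behind the constitutive CaMV 35S promoter, together with the nptII gene for kanamycin resistance, and its plants were progeny of 1 transformant, so what the insertion did and what the enzyme did cannot be told apart. Both genotypes were grown in a glasshouse and sampled 10 days post breaker, and each RNA was a pool of 4 to 5 deseeded fruits from 3 plants. Each of the 3 arrays held 1 pool of Lycb-1 in Cy5 and 1 pool of wild type in Cy3. Lycb-1 was in Cy5 throughout, and a bias of a probe for 1 dye and a difference between genotypes cannot be told apart. The level in a pool of fruit does not separate fewer cells of a type from less RNA per cell.

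Carriers in the membranes of a fruit cell set what enters the cytosol, the vacuole and the plastid. Symporters and antiporters use a gradient of protons or other ions that pumps maintain, whereas ABC transporters spend ATP directly. In fleshy fruit, sugar and amino acid carriers take part in unloading from the phloem, tonoplast carriers move sugars and organic acids in and out of the vacuole, and translocators of the plastid envelope exchange phosphorylated sugars for phosphate.

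On the 3 arrays, 6306, 6289 and 6855 spots reached a signal of 400 in the brighter channel, and the 99th percentile of empty spots was 10 to 15 in the Lycb-1 channel and 27 to 34 in the wild type channel. The 5720 probes that reached 400 on every array were tested. Across them Pearson's r between arrays was 0.16 to 0.38, given as a description, since probes are not independent replicates. Ripening markers were present, and brighter in sum in Lycb-1. Of 58 ripening probes (polygalacturonase, E8, E4, phytoene synthase, expansin 1 and histidine decarboxylase) 34 were tested, with a median log2 ratio of 0.49. On every array 21 of them lay above 0 and 3 below 0, beside 20.4% and 21.3% of all tested probes. Their summed signal, not normalised, was 680084 to 839396 in Lycb-1 and 251344 to 298214 in wild type. A single probe reached up to 85135 in that sum. Of 26 probes for green tissue 11 were tested (median log2 ratio -0.63, summed signal 29049 to 38930 in Lycb-1 and 26331 to 43962 in wild type), and of 17 phloem probes 8 were tested (median -0.07, 19596 to 23152 in Lycb-1 and 18018 to 21160 in wild type). Of 4 seed probes only a steroleosin (SGN-U216554) was tested, at 6247 to 11424 in Lycb-1 and 1330 to 4012 in wild type. The part of these tissues in the results below was not tested.

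Most transporter probes were too dim to be tested, and those for nitrogen most often. Of the 257, 121 reached a signal of 400 on 0 arrays, 34 on 1 or 2 arrays, and 102 (39.7%) on all 3, against 48.2% of all probes. The tested share was 29.8% for sugar, 17.0% for nitrogen, 49.1% for ion and 45.5% for ABC transporters. A dim probe was not an empty one: 177 of the 257 lay above the 99th percentile of empty spots in both channels on every array, and so did 75 of the 155 that were not tested. All 17 nitrate transporter probes and all 3 ammonium transporter probes stayed untested, 16 of those for nitrate with 0 arrays at 400 or more. Both probes for sucrose transporters, which load and unload sucrose with protons, were also not tested, and their highest signals were 188 and 636.

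**Figure D1:**
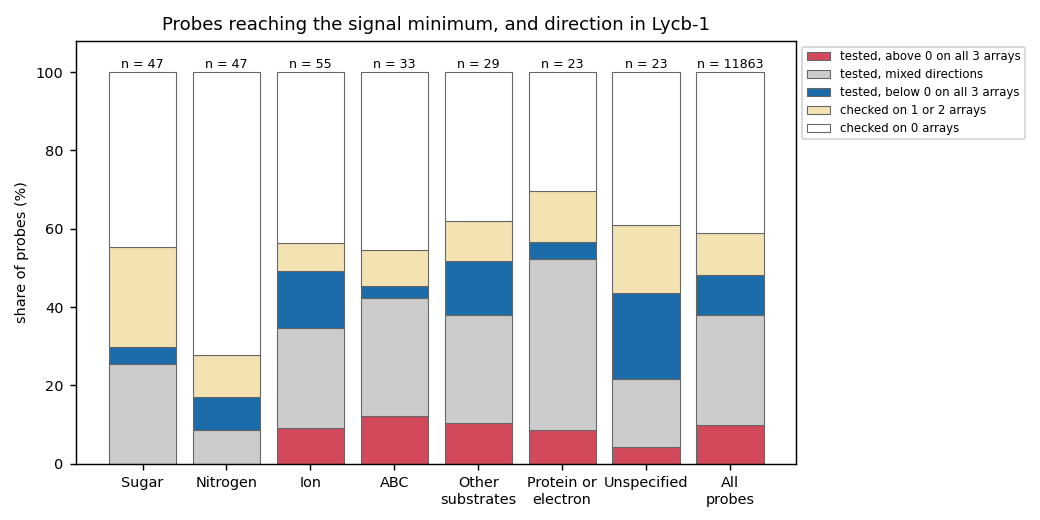
Share of probes (%) in each transporter group and over all 11863 probes, split by how many arrays reached a signal of 400 and by direction (log2 ratio of Lycb-1 over wild type) among those tested. Nitrogen transporters had the smallest tested share (17.0%), and 4 of their 8 tested probes lay below 0 on all 3 arrays, with 0 above. Of all tested probes 21.3% lay below and 20.4% above.

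Among the 102 tested transporter probes, 0 passed the adjusted threshold in limma (Benjamini-Hochberg over 5720 probes, adjusted p under 0.05), where 3 probes (0.0524%) passed over the whole array, and the smallest adjusted p of a transporter was 0.179. At an unadjusted p under 0.05, 3 transporters were higher in Lycb-1, where 6.82% of all tested probes were, and 14 were lower, where 8.62% were. The 17 together are 16.7% of the tested transporters, beside 15.4% of all tested probes in either direction. Without replicate 1 the lower count was 7, and without replicate 3 the higher count was 7. The methods' t-test (one-sample, two-sided) likewise called 0 after adjustment and gave 3 higher and 7 lower without it. Shares of all tested probes by direction were not counted in these alternative runs. On all 3 arrays 15 transporters (14.7%) were above 0 and 25 (24.5%) below 0, against 20.4% and 21.3% of all tested probes. The 40 that kept 1 direction are 39.2% of the tested transporters, beside 41.7% of all tested probes. The median of all 102 mean log2 ratios was -0.01, as it was over all probes. Each value below is thus an observed ratio with its error, and none is a called change.

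Probes described as nitrogen transporters gave the lowest median of the groups, -0.41, over only 8 tested probes of 47. The group follows the descriptions, and its 2 lowest probes are paired with auxin influx carriers of Arabidopsis. The other tested probes of the group had means of -0.95, -0.46, -0.35, 0.22, 0.35 and 0.58, on both sides of 0. The median without the 2 lowest was not computed, so -0.41 is not read as a trait of nitrogen carriers. The lowest was SGN-U234749, described as a putative amino acid transporter, which the array's annotation pairs with Arabidopsis AT2G21050. That locus encodes LAX2, an auxin influx carrier of the amino acid permease superfamily in Arabidopsis, although the word auxin is not in the description. Its signals were 167, 262 and 732 in Lycb-1, against 1490, 1278 and 1032 in wild type. Lycb-1 was the dimmer channel on all 3 arrays, by least in replicate 3, and its signal was under 400 in replicates 1 and 2. The log2 ratios were -2.85, -2.24 and -0.47, with a mean of -1.85 (SE 0.48 over 3 arrays; limma's adjusted p = 0.244).

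SGN-U223374 carries the same description and is paired with AT1G77690, which encodes LAX3, another auxin influx carrier in Arabidopsis. It had 464, 918 and 3020 in Lycb-1, against 2679, 3325 and 3599 in wild type. The wild type signals lay close together and the Lycb-1 signals spread over a wide range, with replicate 3 near the wild type. Its mean was -1.48 (SE 0.42, adjusted p = 0.253 from limma). A further probe of that description, SGN-U217703 (AT3G30390), had 347, 400 and 945 in Lycb-1, against 1021, 897 and 1277 in wild type. Its mean was -0.95 (SE 0.24, adjusted p = 0.242 from limma), again with the smallest difference in replicate 3. The means of these 3 probes were -2.54, -2.05 and -1.19 without replicate 3, and -1.35, -1.02 and -0.76 without replicate 1.

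Proline transporter 1 (SGN-U221238), a tomato carrier of proline, also lay below 0 on all 3 arrays, with a mean of -0.46 (SE 0.19). A second probe of that name, AF014808, reached 400 on 2 arrays, at -0.28 and -0.67. For proline transporter 2 (SGN-U234985) only replicate 1 did, at -1.07, from 175 in Lycb-1 and 544 in wild type. The other amino acid carriers did not run one way. An amino acid transporter (SGN-U222480) averaged 0.58 (SE 0.34) from log2 ratios of -0.28, 1.32 and 0.71, and an aromatic and neutral amino acid transporter (SGN-U222988) averaged 0.35 (SE 0.31) from 0.51, -0.41 and 0.97. The tested probes described as oligopeptide transporters had means of -0.35 (SE 0.22, SGN-U219780, AT4G16370) and 0.22 (SE 0.19, SGN-U219011, AT1G65730). Their place in the nitrogen group rests on the description alone, and what they carry was not tested. The median of the nitrogen group lay between -0.54 and -0.07 over the alternative settings, the value nearest 0 being that of the 6 probes left when both channels had to reach 400.

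**Figure D2:**
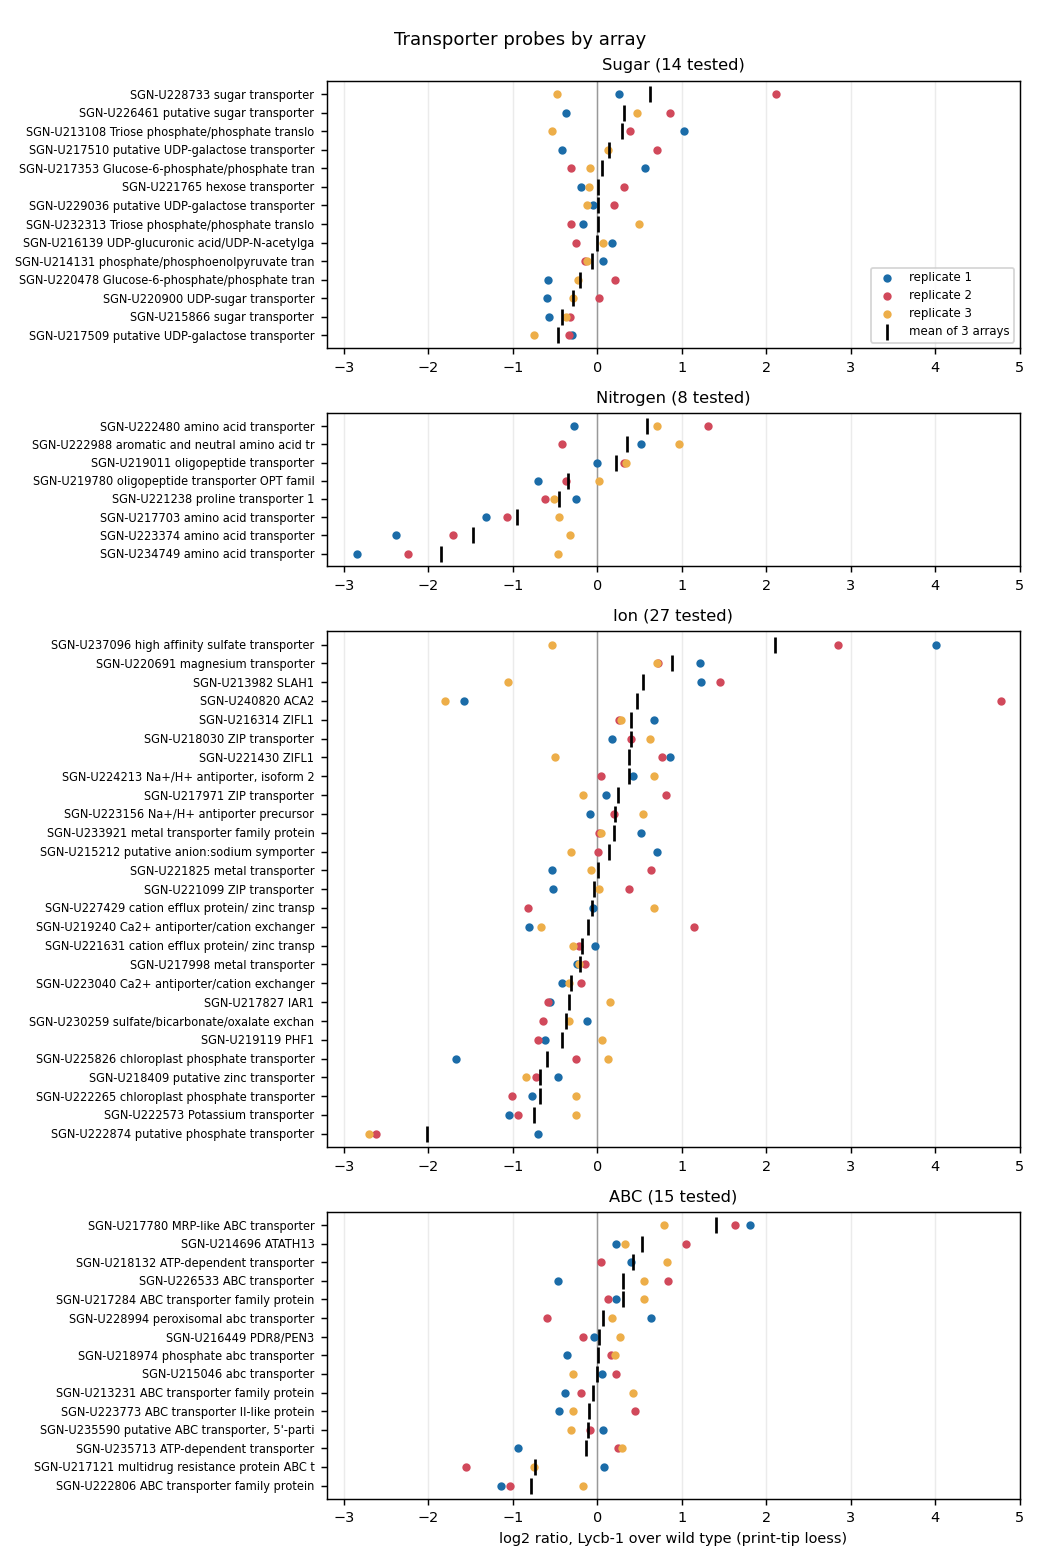
Log2 ratio of Lycb-1 over wild type (x axis, print-tip loess) for each tested sugar, nitrogen, ion and ABC transporter probe, 1 row a probe, with a coloured point for each of the 3 arrays and a black tick for their mean. Sugar probes gather around 0, and 3 probes described as amino acid transporters trail to the left with replicate 3 nearest 0. The sulfate transporter SGN-U237096 and ACA2 (SGN-U240820) have arrays on both sides of 0.

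The sugar transporters that were tested lay near 0. They were 5 plastid sugar-phosphate translocators, 5 nucleotide sugar transporters and only 4 of the 25 hexose, polyol and other sugar transporters. Of 14 tested, 0 had an unadjusted p under 0.05 in limma, beside 15.4% of all tested probes. On all 3 arrays 0 lay above 0 and 2 (14.3%) below, beside 20.4% and 21.3% of all tested probes. The median was 0.00. The means ran between -0.46 and 0.63. Plastid sugar-phosphate translocators, which trade triose phosphates, glucose 6-phosphate or phosphoenolpyruvate for phosphate across the envelope, had means between -0.20 and 0.29 in the 5 tested of 10. SGN-U221765, a hexose transporter paired with AT5G16150, the plastid glucose translocator of Arabidopsis, had 2843, 2442 and 3040 in Lycb-1, against 3017, 2168 and 3060 in wild type. Its channels were close on every array (mean 0.01, SE 0.20).

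Sugar carriers below 0 on every array were a UDP-galactose transporter (SGN-U217509, mean -0.46, SE 0.20, adjusted p = 0.346 from limma) and a sugar transporter paired with AT3G05160 (SGN-U215866, mean -0.42, SE 0.18, adjusted p = 0.352 from limma). Nucleotide sugar transporters such as the first bring activated sugars into the Golgi for glycan synthesis. Probes of one description differed here, since the other UDP-galactose transporter probes of the same Arabidopsis locus, AT1G14360, had means of 0.14 (SGN-U217510) and 0.00 (SGN-U229036). The highest mean, 0.63 (SE 0.52, SGN-U228733), rested on replicate 2, since the log2 ratios were 0.25, 2.11 and -0.48 and the mean without that array was -0.11. A putative sugar transporter (SGN-U226461) followed at 0.32 (SE 0.29).

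Among the 12 sugar probes that reached 400 on only 1 or 2 arrays, those at least 2-fold apart wherever they did are given as single values. How many of the 1277 probes on the array that reached 400 on only 1 or 2 arrays did so was not counted, so no share is compared. A tomato sugar transporter (SGN-U217355) had 179 and 354 in Lycb-1, against 441 and 832 in wild type in replicates 1 and 2 (log2 ratios -1.19 and -1.33), while in replicate 3 both channels were under 400, at 314 in Lycb-1 and 325 in wild type. Another probe of that description and locus (SGN-U233757, AT2G48020) reached 400 in replicates 2 and 3, at -1.27 and -0.43. A sorbitol transporter (SGN-U218010) had 22, 40 and 99 in Lycb-1, against 213, 265 and 1035 in wild type. The wild type channel was the brighter on all 3 arrays and passed 400 only in replicate 3, where the log2 ratio was -3.19. A sugar transporter described as type 2a (SGN-U225750) ran the other way in replicate 3, at 1.41, from 477 in Lycb-1 and 199 in wild type. That was the only array on which it reached 400, and its wild type channel was dim there.

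Among ion transporters, the tested phosphate carriers had means below 0. Of the 27 ion probes tested, 1 was higher and 4 were lower at an unadjusted p under 0.05 (18.5% together, beside 15.4% of all tested probes). On all 3 arrays 5 (18.5%) lay above and 8 (29.6%) below 0, beside 20.4% and 21.3% of all tested probes, and the median was -0.04. The lowest was a tomato phosphate transporter (SGN-U222874) paired with AT5G43360, a member of the PHT1 family that takes up phosphate with protons at the plasma membrane. It had 933, 1089 and 1027 in Lycb-1, against 1647, 7077 and 6406 in wild type. The Lycb-1 signals hardly varied, whereas the wild type signal in replicate 1 was far under those in replicates 2 and 3. The log2 ratios were -0.71, -2.62 and -2.71, with a mean of -2.01 (SE 0.45, adjusted p = 0.217 from limma).

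A pair of probes for the chloroplast phosphate transporter, which is paired with AT3G26570, the plastid carrier PHT2-1 of Arabidopsis, had means of -0.68 (SGN-U222265, SE 0.23, adjusted p = 0.284 from limma) and -0.60 (SGN-U225826, SE 0.39, adjusted p = 0.489 from limma). For the second, replicate 3 lay at 0.13. PHF1 (SGN-U219119), which in Arabidopsis helps phosphate transporters leave the endoplasmic reticulum, had -0.42 (SE 0.23), with replicate 3 at 0.06. The 4 tested of 5 phosphate members had means below 0 with print-tip loess, as 50.9% of all tested probes did. A probe described as a phosphate ABC transporter (SGN-U218974), counted with the ABC group, averaged 0.01 (SE 0.21), and the 2 phosphate transporter probes left out by the choice of members are not counted there.

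The tested transporters whose arrays lay farthest apart were also ion carriers, a sulfate transporter and a calcium pump. A high affinity sulfate transporter of tomato (SGN-U237096) had 635, 548 and 343 in Lycb-1, against 51, 67 and 575 in wild type. The wild type channel was dim in replicates 1 and 2 and the brighter one in replicate 3. Its log2 ratios were 4.01, 2.85 and -0.54, and the mean of 2.10 (SE 0.88, adjusted p = 0.339 from limma) was the highest of all transporters, at 3.43 without replicate 3 and 1.15 without replicate 1. The calcium ATPase ACA2 (SGN-U240820), a calcium pump of Arabidopsis endomembranes, had log2 ratios of -1.57, 4.77 and -1.80, with a wild type signal of only 40 in replicate 2. SLAH1 (SGN-U213982), an anion channel homologue, likewise had arrays on both sides of 0, at 1.23, 1.45 and -1.05.

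A magnesium transporter (SGN-U220691, AT5G09690) had the highest mean of the ion carriers that lay above 0 on all 3 arrays. It had 718, 553 and 609 in Lycb-1, against 314, 312 and 354 in wild type. The Lycb-1 channel was the brighter one on every array, and the wild type signal was under 400 on each. The mean log2 ratio was 0.88 (SE 0.21, adjusted p = 0.229 from limma), and with the wild type set on each array to the lowest normalised signal among spots with a raw signal of 400 or more, or to its own normalised signal where that was higher, the level in Lycb-1 was at least 1.72-fold higher, a point value without an error. Like other probes with 1 dim channel, it entered the tested set only through the genotype in which it was bright.

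Potassium and zinc carriers gave smaller values. A potassium transporter (SGN-U222573) had 802, 823 and 1398 in Lycb-1, against 1565, 1299 and 1557 in wild type, and averaged -0.75 (SE 0.24, adjusted p = 0.277 from limma). A tomato zinc transporter (SGN-U218409, AT1G55910, a ZIP family member) had 1869, 1730 and 2206 in Lycb-1, against 2267, 2527 and 3414 in wild type, with a mean of -0.68 (SE 0.19, adjusted p = 0.251 from limma). The wild type channel was the brighter one on each array for both. The 12 tested of 20 zinc and other metal transporters had means between -0.68 and 0.40. On all arrays 3 of them lay above and 3 below 0, beside 20.4% and 21.3% of all tested probes. Both ZIFL1 probes, for a facilitator of the plasma membrane and tonoplast in Arabidopsis, averaged 0.40 (SGN-U216314, SE 0.19) and 0.38 (SGN-U221430, SE 0.33), the first above 0 on all arrays and the second at 0.86, 0.77 and -0.50. A Na+/H+ antiporter (SGN-U224213), which moves sodium or potassium into endomembrane compartments, had 0.37 (SE 0.21).

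ABC transporters held the highest mean of the tested transporters above 0 on all 3 arrays. An MRP-like ABC transporter (SGN-U217780, AT3G60160) belongs to the ABCC subfamily, whose members carry conjugated and other organic anions, often into the vacuole. It had 21030, 12558 and 11859 in Lycb-1, against 5669, 3449 and 5397 in wild type. The Lycb-1 channel was the brighter one on every array. The log2 ratios were 1.81, 1.63 and 0.79, with a mean of 1.41 (a 2.66-fold ratio, SE 0.26, adjusted p = 0.183 from limma). It was the 1 transporter of 102 at least 2-fold higher and above 0 on all arrays, where 2.12% of all tested probes were, and 5 transporters were at least 2-fold lower and below 0 on all arrays, where 3.11% were.

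Within the ABC group of 15 tested probes, 4 (26.7%) lay above and 1 (6.7%) below 0 on all 3 arrays, beside 20.4% and 21.3% of all tested probes. The median was 0.01. The 1 below was SGN-U222806 (AT2G01320, a half-size ABCG transporter), with 189, 342 and 691 in Lycb-1, against 473, 548 and 639 in wild type. In replicate 3 the raw Lycb-1 signal was the higher, and the normalised log2 ratio there was -0.17. Its mean was -0.78 (SE 0.26, adjusted p = 0.285 from limma). Another ABCC member, SGN-U217121 (AT2G47800), had log2 ratios of 0.08, -1.56 and -0.75, on both sides of 0. ATATH13 (SGN-U214696, AT5G64940), whose family in Arabidopsis resembles ABC1 kinases rather than membrane transporters, had a mean of 0.53 (SE 0.24, adjusted p = 0.369 from limma).

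Several ABC members are soluble proteins by family. Both probes paired with AT1G64550, an ABCF protein with no membrane span, lay above 0 on all arrays, at 0.30 (SGN-U217284) and 0.42 (SGN-U218132), while another ABCF probe (SGN-U213231, AT5G60790) averaged -0.05 at signals of 16765 to 23377 in Lycb-1 and 14093 to 21388 in wild type. PEN3 (SGN-U216449), a plasma membrane exporter used in Arabidopsis defence, had 3424, 2603 and 4393 in Lycb-1, against 3327, 3258 and 3380 in wild type (mean 0.02, SE 0.19). The peroxisomal ABC transporter (SGN-U228994, AT4G39850), which imports substrates of β-oxidation, had a mean of 0.07 (SE 0.29).

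**Figure D3:**
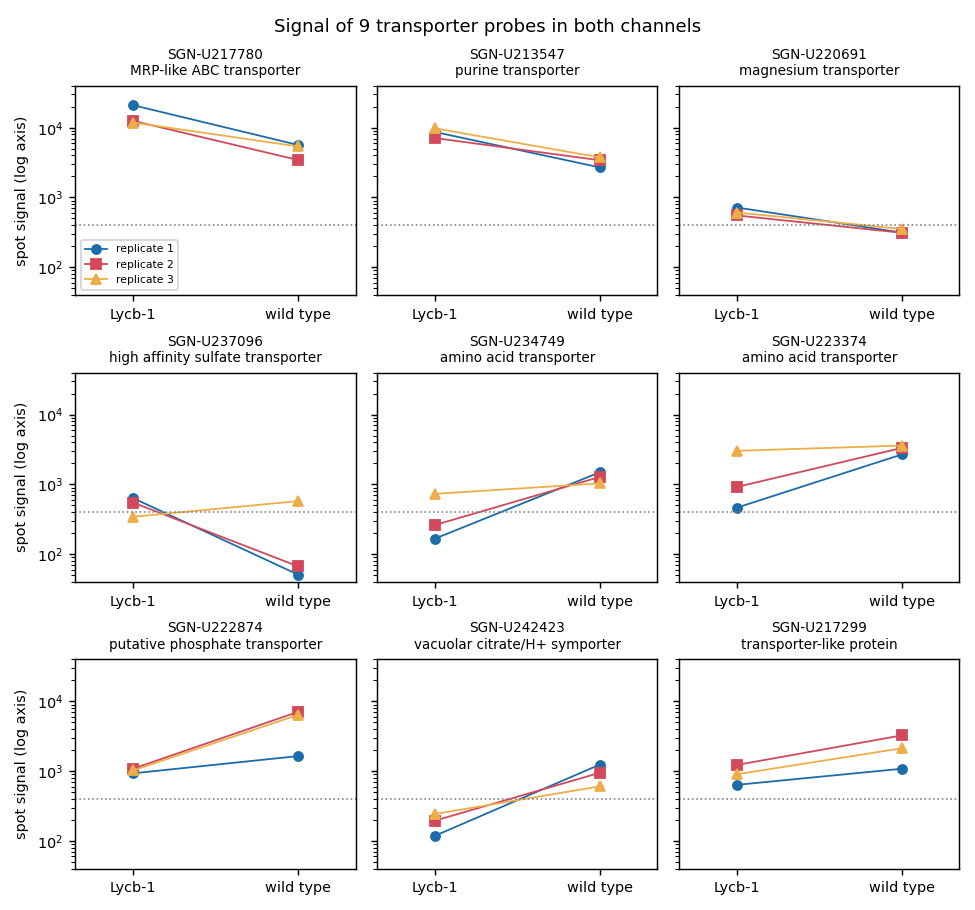
Signal of 9 transporter probes in the Lycb-1 channel (left) and the wild type channel (right) on a log axis, with a line for each of the 3 arrays and a dotted line at the signal minimum of 400. Lines slope down to wild type on every array for the MRP-like ABC, purine and magnesium transporters. They slope up on every array for the 2 probes described as amino acid transporters and for the phosphate, citrate and transporter-like probes. The lines of the sulfate transporter cross.

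Carriers of organic acids and purines gave the lowest mean of the tested transporters and the second highest of those above 0 on all arrays. The vacuolar citrate/H+ symporter (SGN-U242423), described after a citrus protein and paired with AT5G47560, the dicarboxylate transporter of the Arabidopsis tonoplast, moves organic acids between vacuole and cytosol. It had 119, 196 and 244 in Lycb-1, against 1244, 949 and 607 in wild type. All Lycb-1 signals were under 400, so the probe entered the tested set only through the wild type channel, in which it was bright. The mean log2 ratio was -2.45 (SE 0.44, adjusted p = 0.179 from limma). With the Lycb-1 channel raised in the same way, the level was at least 2.53-fold lower in Lycb-1, a point value without an error. The gap was again smallest in replicate 3, at -1.23, against -3.36 and -2.76 in replicates 1 and 2.

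A purine transporter (SGN-U213547, AT4G18210) had 8675, 7106 and 9792 in Lycb-1, against 2699, 3418 and 3757 in wild type. The log2 ratios of 1.17, 0.70 and 1.03 were all above 0 (mean 0.97, a 1.95-fold ratio, SE 0.20, adjusted p = 0.195 from limma). The annotation pairs it with the plant purine permease family, which takes up purines and their derivatives. The other purine transporter probes, paired with neighbouring loci of that family, had means of 0.31 (SGN-U220873, SE 0.25) and 0.05 (SGN-U234419, SE 0.24), with replicate 3 below 0 in both.

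In the same set, a bile acid:Na+ symporter family protein (SGN-U220184) had a mean of -0.63 (SE 0.20, adjusted p = 0.278 from limma), and an adenosine nucleotide translocator (SGN-U222025) had -0.59 (SE 0.18, adjusted p = 0.272 from limma). The translocator is paired with AT3G08580, which encodes a mitochondrial carrier that trades ADP for ATP, and its signals were 1898, 1963 and 1513 in Lycb-1, against 3221, 3428 and 2267 in wild type, below the wild type on each array. The mitochondrial oxoglutarate/malate translocator (SGN-U213605), which swaps organic acids across the inner membrane, averaged 0.18 (SE 0.20), and a D-galactonate transporter (SGN-U212828) averaged 0.32 (SE 0.19). The 15 tested probes of this set had a median of -0.08. On all arrays 3 of them lay above and 4 below 0, beside 20.4% and 21.3% of all tested probes.

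**Figure D4:**
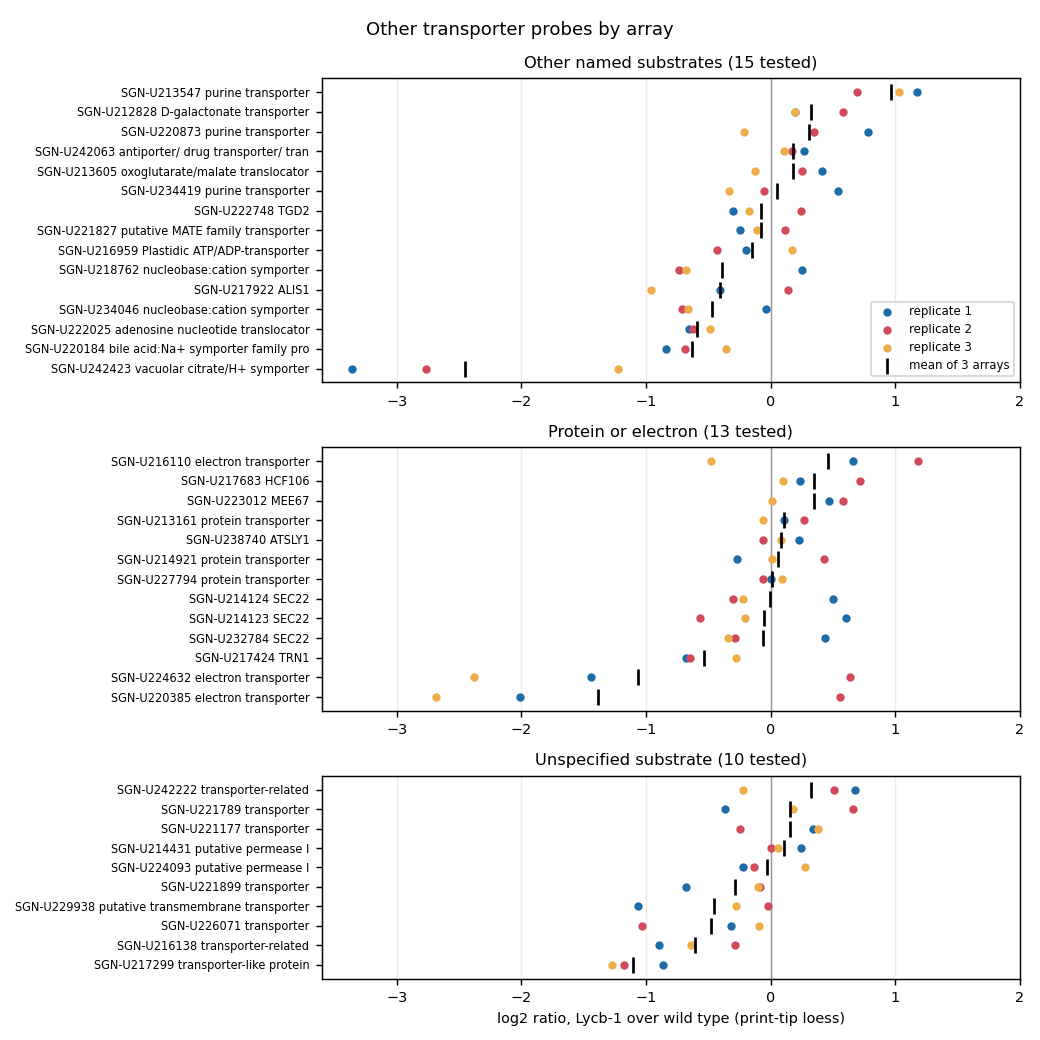
Log2 ratio of Lycb-1 over wild type (x axis, print-tip loess) for the tested transporter probes of other substrates, of proteins or electrons and of no stated substrate, with a point for each of the 3 arrays and a tick for their mean. The citrate/H+ symporter lies farthest left on average (-2.45), and the 2 lowest electron transporter probes have replicate 2 above 0.

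Of 10 tested probes without a stated substrate, 5 lay below and 1 above 0 on all 3 arrays, where 21.3% and 20.4% of all tested probes did. Their median was -0.16, and its sign turned with median centring (0.021) and with no filter on dim spots (0.079). The lowest was a transporter-like protein (SGN-U217299, AT1G75170), with 638, 1231 and 906 in Lycb-1, against 1085, 3262 and 2131 in wild type. Its log2 ratios of -0.86, -1.18 and -1.27 gave a mean of -1.11 (SE 0.19, adjusted p = 0.179 from limma). Leaving out any 1 array moved the mean only between -1.23 and -1.02. A transporter-related probe (SGN-U216138) had -0.61 (SE 0.21, adjusted p = 0.290 from limma), while a UDP-sugar transporter probe of the same locus (SGN-U216139, AT1G06890) had 0.00. Other probes described as transporter-like and paired with AT1G75170 were not tested: SGN-U221393 reached 400 only in replicate 3, at a log2 ratio of 0.52 (455 in Lycb-1 and 341 in wild type), and SGN-U217298 on 0 arrays. At the upper end, SGN-U242222 had 0.32 (SE 0.25) and SGN-U221789 0.16 (SE 0.26).

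Of the probes that move proteins or electrons, 1 of 13 (7.7%) had an unadjusted p under 0.05 in limma, beside 15.4% of all tested probes. It was transportin 1 (SGN-U217424), a nuclear import receptor, at -0.54 (SE 0.19, adjusted p = 0.299 from limma). Electron transporter probes SGN-U220385 (-2.01, 0.55 and -2.69) and SGN-U224632 (-1.44, 0.64 and -2.38) shared their pattern over arrays, with replicate 2 apart from the others. Their Arabidopsis loci, AT5G39865 and AT3G28850, encode glutaredoxin family proteins, not membrane carriers. HCF106 (SGN-U217683), a part of the thylakoid twin-arginine export machinery, averaged 0.35 (SE 0.21), and an electron transporter probe paired with AT5G51010 (SGN-U216110) averaged 0.46 (SE 0.36).

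Probes that share an Arabidopsis locus are not independent, since they may report one gene or close relatives. Among tested members 32 probes fell on 15 shared loci. The gap between the lowest and highest mean at a locus was 0.02 to 0.60, with a median of 0.13, and at 4 loci the means lay on both sides of 0. The widest gap was that of the transporter-related and UDP-sugar transporter probes of AT1G06890.

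Proton pumps and ion channels, which carriers work beside, were counted in the same way. Of 14 probes for proton pumps of the plasma membrane and tonoplast 8 were tested, 4 lay below and 0 above 0 on all arrays, beside 21.3% and 20.4% of all tested probes, and the median was -0.19. The lowest was a proteolipid subunit of the vacuolar ATPase (SGN-U212667) at -0.85 (SE 0.18, adjusted p = 0.212 from limma), whereas a second probe of that description (SGN-U212659) had 0.34 (SE 0.24). Of 25 probes listed as ion channels by the word channel 12 were tested, 5 (41.7%) above and 2 (16.7%) below 0 on all arrays, beside 20.4% and 21.3% of all tested probes. The word also took in porins and proteins described only by a potassium channel tetramerization domain. The porins SGN-U214996 and SGN-U219750 and the domain protein SGN-U221767 were among those above 0. Another domain protein, SGN-U221595, was among those below, so these are not shares of ion channels alone. The median of the 12 was -0.05 and turned to between 0.09 and 0.20 under 6 of the alternatives. They ran between an inward rectifying potassium channel (SGN-U217439) at -1.70 (SE 0.47, adjusted p = 0.249 from limma) and a mechanosensitive channel, MSL5 (SGN-U223721), at 1.11 (SE 0.31, adjusted p = 0.249 from limma).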

How the data were processed

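RNA of ripe fruit was compared on 3 two-colour TOM2 arrays. The authors deposited, per spot, the background-subtracted intensity of both channels and a ratio, Lycb-1 to wild type, that they normalised by print-tip lowess in marray, and the deposited value table holds log2 of that ratio (largest difference 4.87e-09). Their checked spots had an intensity of at least 400 in the brighter channel. The deposited file of differentially expressed spots holds the authors' own selection and was not used.

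From the intensities, ratios were normalised by print-tip loess (48 blocks of 286 spots, control and empty spots at weight 0) in limma 3.58.1 (R 4.3.3). Spots checked on all 3 arrays (5846) were averaged by probe (5720 probes), and the mean log2 ratio was tested two-sided against 0 with lmFit and eBayes (3.06 prior degrees of freedom), and p-values were adjusted by Benjamini and Hochberg's method. SE is that moderated by limma (n = 3 arrays). P-values measure the spread between 3 pairs of pools. The number of arrays limits the precision. Lower bounds of a fold set the dim channel to the lowest normalised signal among spots with a raw signal of at least 400, or to its own where higher.

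Members, groups and lists were chosen with earlier results of these data known. Named probes were every tested transporter at an unadjusted p under 0.05, the 2 highest and 2 lowest means of each group, tested members with the same description, and untested members at least 2-fold apart wherever checked. Proteins and electrons were set apart from the other groups by description after the files were read, and probes named outside this rule were chosen after their values were seen. Alternatives covered the normalisation, the deposited ratio, the filter, an offset, spot averaging, pairing of channels, variance model, test and each array left out. The procedure was tested on simulated data. Probe names matched 0 entries of the reference table, so Arabidopsis loci are those of the array files. Plots were made in matplotlib 3.10.9 under Python 3.11.15.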

Additional observations from a re-analysis of the deposited data

How the results depend on the processing

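The count of 0 transporter probes at an adjusted p under 0.05 held in every alternative run, and over the 40 named probes the smallest adjusted p from limma in any of them was 0.0740 (without replicate 3). Over all probes the 3 calls became 9 with global loess, 17 with median centring, 1 with both channels at 400 or more, 0 to 1 with an array left out, and 0 with the deposited ratio, no filter, an intensity trend with robust prior, or the methods' t-test. Treating the channels as unpaired (no replicate block, where the main fit pairs the pools by array) gave 8 calls and 566 probes at an unadjusted p under 0.05 in place of 883, which was 530 to 765 with an array left out. Median centring moved the median of all probes to 0.15, and those of all, ion and unspecified transporters and ion channels to 0.080, 0.095, 0.021 and 0.20. Transporters at an unadjusted p under 0.05 were then 5 higher and 9 lower, and those with a mean above and below 0 were 58 and 44 in place of 49 and 53, beside 3612 and 2108 of all probes in place of 2810 and 2910. With no filter 215 transporters were tested, 12 higher and 26 lower at an unadjusted p under 0.05. On all arrays 34 of them lay above and 56 below 0, beside 19.6% and 19.5% of the 10259 probes then tested. The medians were 0.079 for unspecified transporters and 0.18 for ion channels. With both channels at 400 or more 80 were tested, 9 lower at an unadjusted p under 0.05, with medians of -0.19 for ion and -0.068 for nitrogen transporters and 0.10 for ion channels, which had 0.11 with global loess. The methods' t-test gave 7 lower. With an array left out, 4 to 7 transporters were higher and 7 to 11 lower at an unadjusted p under 0.05. On both remaining arrays 21 to 28 lay above and 34 to 38 below 0, beside 28.6% to 30.3% and 31.4% to 31.9% of all probes. Shares of all probes at an unadjusted p under 0.05 were not counted by direction in the alternative runs. Medians with an array left out ran from -0.091 to 0.0087 for all transporters, -0.20 to 0.045 for ion transporters and -0.087 to 0.13 for ion channels. Of the named probes 6 changed sign, of which SGN-U228733 had a mean of 0.63 in the report and the others means of -0.05 to 0.16. SGN-U229036 had -0.12 with global loess, -0.033 with median centring, -0.0092 with an offset of 50, and -0.092 to 0.068 with an array left out. SGN-U213231 had 0.26 with median centring, 0.0019 with the offset, and -0.29 to 0.12 with an array left out. SGN-U234419 had -0.0078 with global loess and -0.19 to 0.24 with an array left out. With an array left out, SGN-U217510 had -0.15 to 0.42, SGN-U221789 -0.090 to 0.42 and SGN-U228733 -0.11 to 1.18, each lowest without replicate 2. The cause was not tested. For 155 of 257 transporters the signal limits what can be said, since neither channel reached 400 on at least 1 array.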
